A study of Mus musculus with 12 samples.

Results

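The Hox genes encode homeodomain transcription factors that give cells of the body axis and the limbs their positional identity. Here they are all rows of the deposited expression table whose symbol is Hoxa, Hoxb, Hoxc or Hoxd followed by a number, which gave 39 of 53341 genes. A Hox gene was called expressed, and entered the tests, when it reached 10 normalized counts in 3 or more of the 12 libraries. By that rule 28 of the 39 were expressed, among 18139 genes that passed it in the whole table. RNA came from cultures of fibroblast-like synoviocytes, which are fibroblasts that line the joint, from mice labelled SoxC. SoxC is the family of the transcription factors Sox4, Sox11 and Sox12.

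The 12 libraries formed 4 groups of 3. SoxC_KO_TNF cells had the SoxC knockout genotype, received the adenovirus Ade5CMV-Cre and then recombinant human TNF at 10 ng/mL for 16 h. SoxC_KO cells received Ade5CMV-Cre without TNF. The control_TNF cells received Ade5CMV-eGFP and the same TNF, and control cells received Ade5CMV-eGFP alone. All 4 groups therefore carried an adenovirus, and Cre was driven by the CMV promoter, which is active in many cell types. Every knockout comparison also sets the Cre virus against the eGFP virus. Loss of SoxC and the change of virus cannot be told apart here. The sources used here do not name the joint, the age of the mice or the part of each SoxC gene removed. The study asks which TNF responses depend on SoxC. Nothing in the labels ties a library to its own animal or culture, so the spread behind each p-value is that between libraries and may be technical.

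Mammalian Hox genes lie in 4 clusters, named a to d, and their numbers run from the 3′ to the 5′ end of each cluster. Low-numbered genes act towards the head and high-numbered genes towards the tail and the tips of the limbs. In the mouse limb, position 9 and 10 genes act in the upper segment, position 11 genes in the middle segment (forearm and lower leg) and position 13 genes in the hand or foot. Fibroblasts of adult tissues, those of joints included, keep a Hox pattern that reflects where they came from.

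Normalized totals were 19.6 to 23.1 M per library. Sox4 was at 548 to 1433 normalized counts in the 6 libraries given Cre, against 1625 to 4238 in the 6 given eGFP, and these did not overlap. Sox11 was at 26.8 to 175 with Cre against 138 to 272 with eGFP, and Sox12 at 86.5 to 259 against 162 to 352, and both overlapped. All 11 synoviocyte markers on the list used were expressed, among them Prg4 and Cdh11. Of 7 macrophage markers 6 were expressed, with sums of 1396 to 4004 per library, most of it from Lyz2, Cd14 and Csf1r, while Ptprc, which marks blood cells, was at 0 to 19.1. The 4 libraries numbered 3 stood apart from the others, and the replicate number changed 47.7% of all genes tested. Summed liver transcripts reached 3708 in SoxC_KO_TNF replicate 1 and 576 in control_TNF replicate 2, and at most 69.8 elsewhere. Myh4, a muscle myosin, was at 277 in SoxC_KO_TNF replicate 1 and 188 in SoxC_KO replicate 1, and at most 13.3 elsewhere. Hox calls that rest on these libraries are given with and without them, and calls of other genes are given for all 12 libraries only.

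The synoviocytes expressed mainly the 5′ genes of the Hox clusters. Of the 16 genes at positions 9 to 13, 15 were expressed and the exception was Hoxb13. At positions 4 to 8, 10 of 15 genes were expressed, and at positions 1 to 3, 3 of 8. By cluster, 10 of 11 Hoxa genes, 5 of 10 Hoxb genes, 7 of 9 Hoxc genes and 6 of 9 Hoxd genes were expressed. To compare genes of different length, levels were divided by exon length and given as normalized counts per kb. Positions 9 to 13 held 86.6% to 89.5% of the summed Hox level per kb in the 12 libraries (median 88.5%). Positions 4 to 8 held 8.89% to 11.3%, and positions 1 to 3 held 1.12% to 2.45%. The Hoxa cluster held 52.8% to 59.0% of the same sum and the Hoxd cluster 30.0% to 35.6%. The Hoxc cluster held 7.22% to 11.0% and the Hoxb cluster 1.62% to 3.62%.

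**Figure D1:**
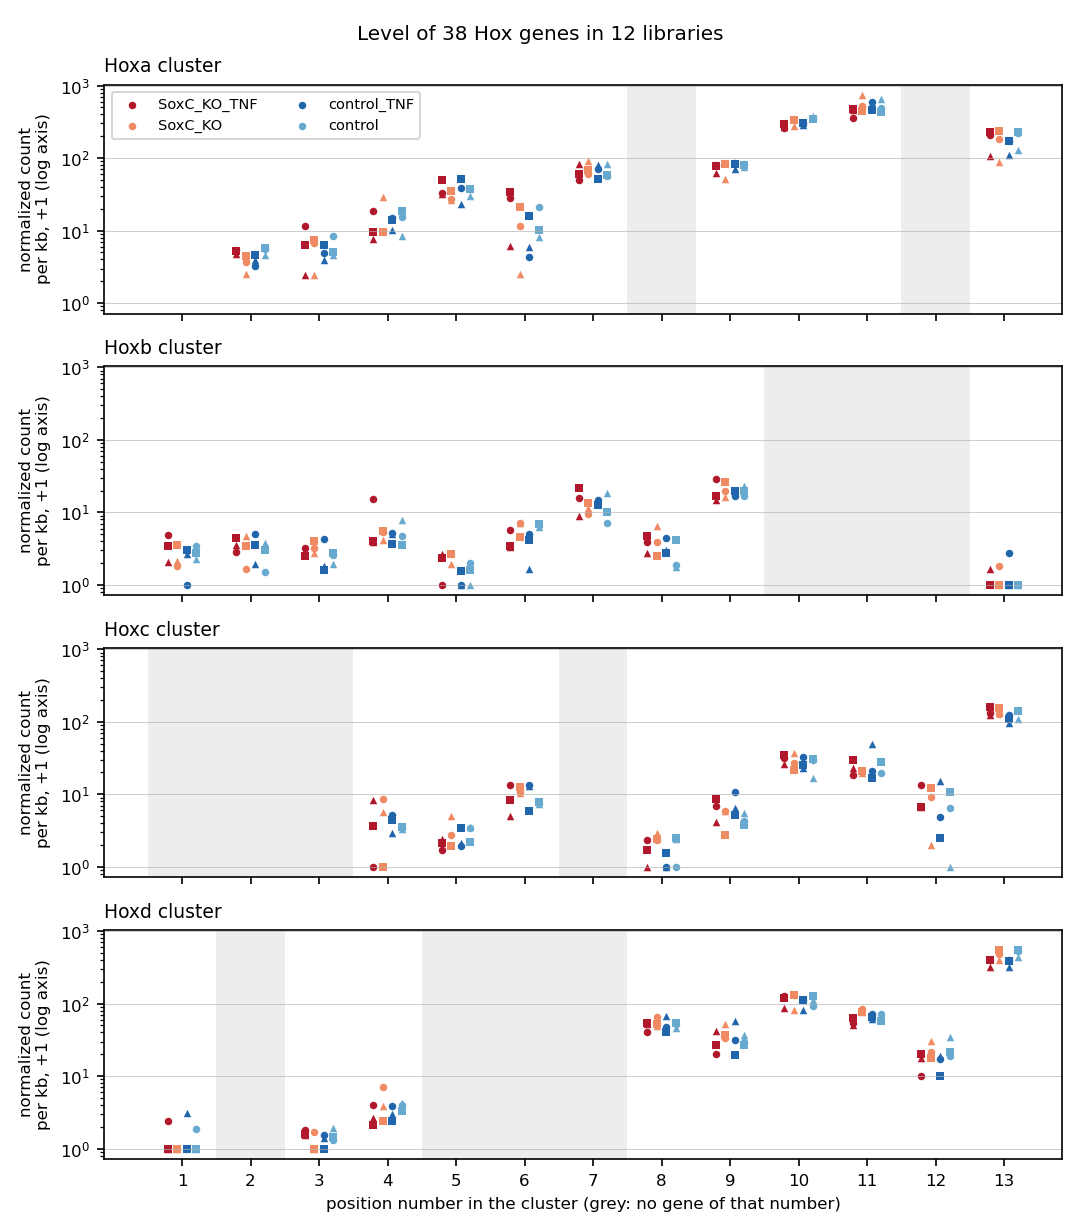
Level of 38 Hox genes in the 12 libraries, by cluster and position number, as normalized counts per kb of exon plus 1 on a log axis. Colours mark the 4 groups, circles, squares and triangles mark replicate numbers 1, 2 and 3, and grey marks numbers with no gene. The highest points are those of Hoxa11, Hoxd13 and Hoxa10.

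Hoxa11, which patterns the forearm and lower leg, had the highest mean level per kb, at 516 ± 104 (SD, n = 12 libraries). It lies on chromosome 6 from 52242106 to 52245810 on the minus strand (mm10). That level was above 86.6% of the genes tested, whose median was 69.9 per kb. Unscaled normalized counts of Hoxa11 were 826, 1089 and 1042 in SoxC_KO_TNF, 1199, 1032 and 1695 in SoxC_KO, 1334, 1064 and 1306 in control_TNF, and 1124, 977 and 1470.3 in control libraries. Its exons share 35.0% of their bases with the opposite-strand transcript Hoxa11os, which had a mean of 673 normalized counts. The sources used here do not give the strand setting of the counting, so reads of Hoxa11 and Hoxa11os may be mixed.

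Hoxd13, which patterns the digits, came second at 429 ± 80.6 per kb. It lies on chromosome 2 from 74668310 to 74671599 on the plus strand. Hoxa10, which acts with its paralogs in the upper limb segment, followed at 313 ± 39.01, and Hoxa13, needed for the hand and foot, at 172 ± 52.6. Hoxc13, known for its role in hair and nails, was at 129 ± 19.2 and Hoxd10 at 108 ± 19.3. Hoxa11 exceeded Hoxd13 in 8 of 12 libraries and their ranges overlapped, whereas Hoxd13 exceeded Hoxa10 in 12 of 12. Among the 15 highest Hox genes, 1 of the 14 neighbouring pairs in this order did not overlap in any library, and that pair was Hoxa10 above Hoxa13.

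In the Hoxc and Hoxb clusters the highest levels per kb were those of Hoxc13 and Hoxb9. Hoxc13 had normalized counts of 326, 390.0 and 303 in SoxC_KO_TNF, 312, 384 and 321 in SoxC_KO, 304, 269 and 234 in control_TNF, and 353, 345 and 263 in control libraries. Those libraries spanned less than a factor of 2 and all groups overlapped, apart from SoxC_KO against control_TNF. Hoxc10, a hindlimb Hox gene in the mouse, had 58.7, 64.3 and 48.4 in SoxC_KO_TNF, 50.3, 39.5 and 67.9 in SoxC_KO, 59.7, 46.6 and 42.5 in control_TNF, and 54.5, 56.8 and 30.4 in control libraries. Hoxb9 had 71.8, 40.1 and 36.2 in SoxC_KO_TNF, 49.0, 66.1 and 39.1 in SoxC_KO, 40.3, 48.3 and 48.8 in control_TNF, and 41.4, 49.0 and 57.9 in control libraries, and Hoxb7 had 23.1, 31.9 and 12.1 in SoxC_KO_TNF, 13.2, 19.1 and 16.1 in SoxC_KO, 21.0, 18.2 and 21.1 in control_TNF, and 9.56, 14.1 and 27.5 in control libraries. No group stood apart from the other 3 for Hoxc10, Hoxb9 or Hoxb7. Hoxd10 had 232, 214 and 154 in SoxC_KO_TNF, 239, 233 and 148 in SoxC_KO, 199, 201 and 146 in control_TNF, and 167, 229.6 and 199 in control libraries. The libraries numbered 3 were the lowest of their group for Hoxd10 in every group but control.

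The 11 genes that were not expressed were Hoxa2, Hoxb1, Hoxb3, Hoxb5, Hoxb8, Hoxb13, Hoxc5, Hoxc8, Hoxd1, Hoxd3 and Hoxd4. Their highest single value was 18.1 normalized counts. Just inside the rule were Hoxb2 and Hoxc12, each at 10 or more in 3 libraries, and just outside was Hoxb3, in 2 libraries. At a minimum of 50 normalized counts 17 Hox genes remained. Hoxc12 had 12.9, 5.81 and 5.95 in SoxC_KO_TNF, 8.36, 11.7 and 1.002 in SoxC_KO, 3.98, 1.58 and 14.5 in control_TNF, and 5.62, 9.96 and 0 in control libraries, and Hoxc4 had 0, 6.77 and 18.6 in SoxC_KO_TNF, 19.8, 0 and 12.1 in SoxC_KO, 10.9, 8.71 and 4.84 in control_TNF, and 6.37, 6.64 and 5.88 in control libraries. Hoxc4 was listed at 0 in 2 libraries and Hoxc12 in 1, and no group stood apart for either. The table holds no value above 0 and at or under 1 normalized count, so a listed 0 may stand for a value up to 1. Hoxd3 and Hoxd4 share 62.8% and 52.3% of their exon bases with other genes, Hoxb3 and Hoxb2 52.9% and 27.3%, and Hoxa3 27.1%. For Hoxd3 and Hoxd4 part of this is on the same strand, with each other and with Gm28230. For Hoxa3, 8.0% of the exon bases are shared on the same strand with Gm28308. How reads of shared bases were assigned is not known. In bulk RNA, fewer cells expressing a gene and less RNA per cell cannot be told apart.

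Genes that mark limb type were also measured. Tbx4 and Pitx1, which mark the hindlimb in the embryo, averaged 107 and 47.0 normalized counts per kb, and Tbx5, which marks the forelimb, averaged 5.99 per kb. The unscaled values were 366 ± 69.9 for Tbx4, 125 ± 45.2 for Pitx1 and 27.99 ± 13.1 for Tbx5 (SD, n = 12).

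Promoter sequences are shown for Hoxd13, Hoxd11 and Hoxa10, whose values with TNF are given below. Neither Hoxd11 nor Hoxa10 was called for TNF in the fits to all 12 libraries. Each is the 250 bases before the RefSeq transcription start (GRCm38.p6), 5′ to 3′ on the gene's strand, and capitals mark the motifs searched. RefSeq's table held promoters for 22 of the 39 Hox genes. Hoxd13 is at chr2:74667975-74668224 (plus strand), Hoxd11 at chr2:74679308-74679557 (plus strand) and Hoxa10 at chr6:52240855-52241104 (minus strand).
Hoxd13: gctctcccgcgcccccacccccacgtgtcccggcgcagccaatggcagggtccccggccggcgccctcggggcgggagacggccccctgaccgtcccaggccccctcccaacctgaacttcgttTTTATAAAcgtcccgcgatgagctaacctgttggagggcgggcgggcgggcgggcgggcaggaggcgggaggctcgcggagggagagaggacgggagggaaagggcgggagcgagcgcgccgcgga
Hoxd11: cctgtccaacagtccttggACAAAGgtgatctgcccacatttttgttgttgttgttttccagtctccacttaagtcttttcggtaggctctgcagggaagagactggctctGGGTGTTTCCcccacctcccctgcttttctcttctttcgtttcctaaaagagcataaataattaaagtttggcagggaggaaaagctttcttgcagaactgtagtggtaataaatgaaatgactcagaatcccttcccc
Hoxa10: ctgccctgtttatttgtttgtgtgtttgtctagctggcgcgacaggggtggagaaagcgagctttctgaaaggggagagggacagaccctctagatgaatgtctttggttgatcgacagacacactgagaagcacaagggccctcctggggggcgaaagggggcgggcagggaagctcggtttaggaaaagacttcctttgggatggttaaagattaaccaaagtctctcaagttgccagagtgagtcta
The motifs were searched on both strands. GGG and TTCC separated by any 3 bases, a loose form of the site read by NF-kB factors such as RELA, was in 4.65% of 32851 promoters and in 1 of the 22 Hox promoters, that of Hoxd11. ACAAAG, a core read by SOX factors, was in 16.5% of promoters and in 5 Hox promoters, among them Hoxd11. AACAAT, another SOX core, was in 9.42% of promoters and in 0 Hox promoters. TATAAA was in 12.4% of promoters and in 3 Hox promoters, and in Hoxd13 it matched on both strands in overlapping positions. The Hoxa10 window held none of the 4 motifs. The Hoxd13 window held 31 CpG dinucleotides, Hoxa10 held 7 and Hoxd11 held 2, against a median of 12 over the 22 Hox promoters and 6 over all genes in the table.

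No Hox gene was called for TNF in the fit to all 12 libraries without the replicate number, and Hoxd13, lower with TNF, was called with that number as a block. Of the 28 Hox genes tested, 0 were called by limma at a Benjamini-Hochberg adjusted p under 0.05 in SoxC knockout cells, where 0.292% of all genes were called, and 0 in control cells, where 0.32% were. Averaged over both genotypes 0 were called, against 1.17% of all genes. At an unadjusted p under 0.05 the average effect gave 3 Hox genes (Hoxd13, Hoxd12 and Hoxb6, all lower with TNF), against 8.17% of all genes. The median log2 change of the 28 Hox genes with TNF was -0.06 in knockout cells and -0.01 in control cells, beside -0.01 and -0.02 for all genes tested.

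Hoxd13 had normalized counts of 999, 986 and 780.3 in SoxC_KO_TNF, 1209, 1371 and 978 in SoxC_KO, 995, 949 and 790.1 in control_TNF, and 1302, 1341 and 1071 in control libraries. Every TNF library was lower than its same-numbered untreated library. The TNF and untreated libraries did not overlap in control cells, and overlapped in knockout cells, where the untreated library numbered 3 was the lowest of its group. Means were 922 ± 122 in SoxC_KO_TNF against 1186 ± 198 in SoxC_KO cells, and 911 ± 107 in control_TNF against 1238 ± 146 in control cells (SD, n = 3 each). The log2 changes, which put Hoxd13 with TNF at 78.0% of the untreated level in knockout cells and at 73.7% in control cells, were -0.36 (SE 0.20, limma adjusted p = 0.762) and -0.44 (SE 0.20, limma adjusted p = 0.998).

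Same-numbered libraries with and without TNF deviated together to differing degrees, at a lowest r of 0.148 in knockout and 0.103 in control cells. The TNF comparison was therefore also fitted with the replicate number as a block. That block spans all 4 groups, although the SoxC_KO_TNF and control_TNF libraries numbered 1 had r = 0.0537, under the 0.1 used for pairing. The average log2 change of Hoxd13 was -0.40, with a limma adjusted p of 0.354 (SE 0.14) without the block and 0.0187 (SE 0.087) with it. With the block 1 of 28 Hox genes, Hoxd13, was called for the average effect, against 5.19% of all genes. Within each genotype 0 were called with the block, against 2.78% of all genes in knockout cells and 1.71% in control cells. This call was lost with the block when SoxC_KO replicate 1 or 2, control_TNF replicate 2 or 3, or any of the 3 control libraries was left out, with adjusted p of 0.0512 to 0.0792. Without the 2 libraries with liver transcripts the blocked adjusted p was 0.0978, and without the 4 libraries numbered 3 it was 0.0915. Without a block and without the 4 libraries numbered 3 it was 0.0460. The log2 change stayed between -0.47 and -0.34 over the 47 alternatives. A two-sided exact permutation test gave p = 0.3 in knockout cells and p = 0.1 in control cells, the smallest that 3 libraries against 3 allow. Over both genotypes, the 6 TNF libraries against the 6 untreated ones gave an exact p of 0.00866. That shuffling ignored replicate number and genotype. Hoxd13 had the smallest Hox p for this average and was picked on the same values, so the exact tests are no independent evidence. They were among 96 such tests on 16 members and are unadjusted.

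**Figure D2:**
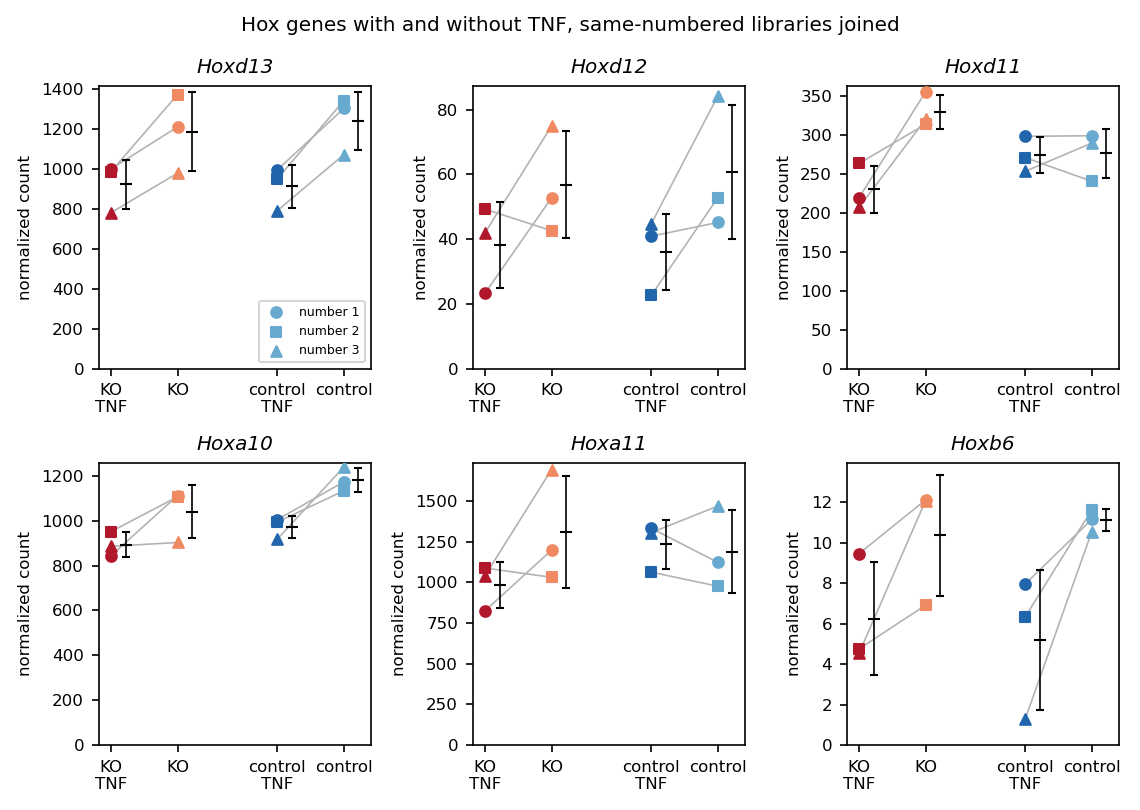
Normalized counts of 6 Hox genes in the 4 groups (KO is SoxC_KO), with grey lines joining same-numbered libraries and black marks giving the mean ± SD of 3 libraries. Hoxd13, Hoxa10 and Hoxb6 are lower with TNF in all 6 pairs, while Hoxa11 is not.

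In all 6 same-numbered pairs 4 of the 28 Hox genes were lower with TNF, among them Hoxd13, Hoxa10 and Hoxb6, against 5.33% of all genes. None of the 28 was higher in all 6, against 4.91%. Hoxb6, Hoxd12 and, for the knockout, Hoxc6 were named after their values were seen. Hoxa10 had 844, 951 and 886 in SoxC_KO_TNF, 1112, 1106 and 903 in SoxC_KO, 1004, 994 and 918 in control_TNF, and 1173, 1133 and 1239 in control libraries. Its TNF and untreated libraries did not overlap in control cells and overlapped in knockout cells. The log2 change was -0.21 (SE 0.16, limma adjusted p = 0.811) in knockout cells and -0.28 (SE 0.16, limma adjusted p = 0.998) in control cells. In control cells, 4 Hox genes had TNF libraries all below the untreated ones (Hoxd13, Hoxd12, Hoxa10 and Hoxb6), against 4.11% of all genes. In knockout cells this held for Hoxd11, against 6.4%. No Hox gene had TNF libraries all above the untreated ones, against 6.43% of all genes in knockout and 4.6% in control cells. Hoxd12, which acts in the digits, had 23.3, 49.3 and 42.0 in SoxC_KO_TNF, 52.8, 42.6 and 74.99 in SoxC_KO, 40.9, 22.6 and 44.8 in control_TNF, and 45.2, 52.8 and 84.3 in control libraries. Its average log2 change with TNF was -0.66 (SE 0.28, limma adjusted p = 0.519). Hoxb6, at 1.30 to 12.1 normalized counts, was near the floor of the expression rule.

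Hoxd11, which acts with Hoxa11 in the middle limb segment, had 219.7, 264 and 207 in SoxC_KO_TNF, 356, 314 and 320.4 in SoxC_KO, 299, 271 and 254 in control_TNF, and 299, 241 and 290.0 in control libraries. In knockout cells the 3 TNF libraries lay below the 3 untreated ones, while in control cells the groups overlapped. The log2 change with TNF was -0.52 (SE 0.18, limma adjusted p = 0.469) in knockout cells and -0.01 (SE 0.18, limma adjusted p = 0.9997) in control cells. The difference of these responses was -0.51 (SE 0.26, limma adjusted p = 0.884). Its exons share 10.8% of their bases with the same-strand transcript Gm28309, which had a mean of 164 normalized counts. Over the 28 Hox genes, the difference of the TNF responses was called for 0, against 0 of all genes, and 0 Hox genes had an unadjusted p under 0.05, against 1.51% of all genes.

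**Figure D3:**
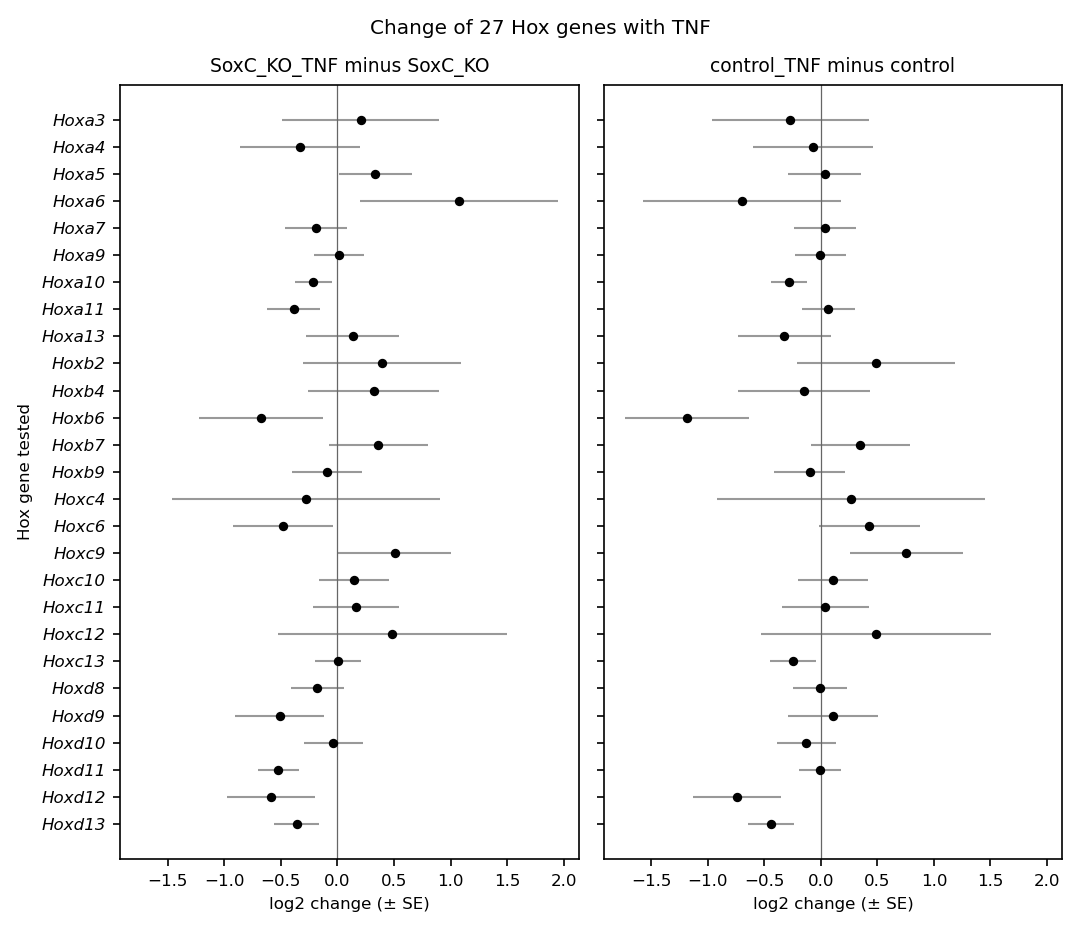
Log2 change with TNF, with its standard error, for 27 of the 28 Hox genes tested, in SoxC knockout cells (left) and control cells (right), from the limma fit to 12 libraries. Most bars cross 0, and Hoxd13 and Hoxd12 lie below 0 in both panels.

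No Hox gene was called for SoxC knockout. Of the 28, 0 were called with TNF and 0 without, against 0 of the 18139 genes tested in either setting. Sox4 itself was therefore not called, though its knockout and control means were 902 against 2323 with TNF and 1138 against 3413 without. A count of 0 thus cannot show that Hox genes were unchanged. At an unadjusted p under 0.05 the Hox count was 0 in both settings, against 1.28% of all genes (233) with TNF and 0.97% (176) without. The median Hox log2 change was 0.05 with TNF and 0.04 without. The smallest Hox p with TNF belonged to Hoxc13, at 0.34 (SE 0.20, limma adjusted p = 0.997). Without TNF it belonged to Hoxd11, at 0.26 (SE 0.18, limma adjusted p = 0.999). Without TNF, the knockout libraries of Hoxd11 and Hoxc6 were all above the controls, against 2.39% of all genes, and those of Hoxa10 all below, against 1.98%. Averaged over TNF, 0 Hox genes were called, against 0 of all genes (140 at an unadjusted p under 0.05). With TNF, no Hox gene separated in either direction, against 2.82% of all genes higher and 2.34% lower. For Hoxd13 the log2 change with knockout was 0.01 (SE 0.20) with TNF and -0.07 (SE 0.20) without.

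**Figure D4:**
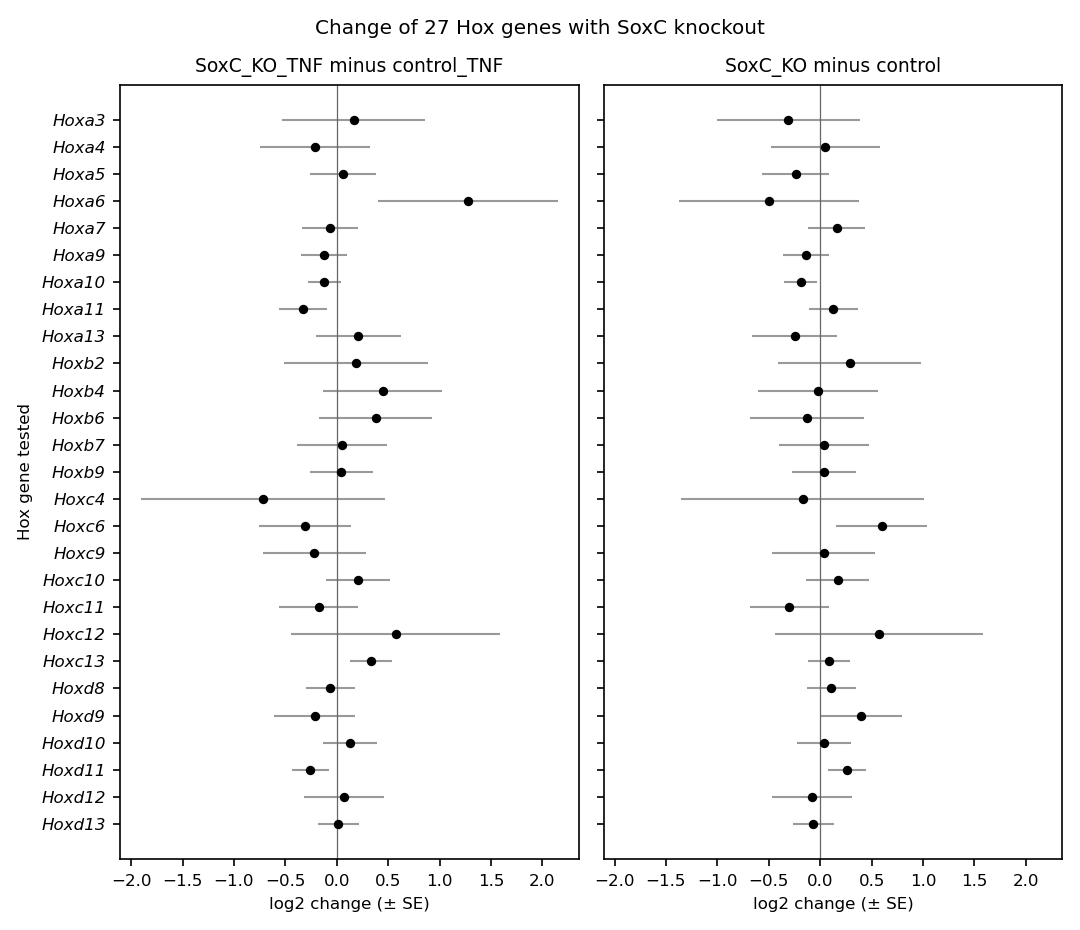
Log2 change with SoxC knockout, with its standard error, for 27 of the 28 Hox genes tested, with TNF (left) and without TNF (right). No gene plotted was called by limma in either panel.

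More Hox genes were called for replicate number than for TNF or knockout, as also held for all genes tested. The number changed 6 of the 28 (limma F test, adjusted p under 0.05), against 47.7% of all genes, and the differences below are number 3 minus the mean of 1 and 2. The adjusted p beside each difference is that of the F test and does not test the difference itself. Tested by itself, that difference was also under 0.05 for other Hox genes, among them Hoxa9, Hoxd10, Hoxa11 and Hoxa5 (limma adjusted p = 0.0246 to 0.0385). The share of all genes in that test is not given. Hoxa13 had 509, 557 and 265 in SoxC_KO_TNF, 454, 583 and 214 in SoxC_KO, 421, 421 and 274 in control_TNF, and 541, 557 and 317 in control libraries. Its 4 libraries numbered 3 were at 214 to 317, below the other 8 at 421 to 583, and the log2 difference was -0.92 (SE 0.12, adjusted p = 0.00035). Hoxa13 was the gene of the 6 that kept its call under each of the 22 alternatives. Hoxd13 had a log2 difference of -0.34 (SE 0.092, adjusted p = 0.0262). Cell type markers differed by number as well. The 7 macrophage markers summed to 3440 to 4004 in the libraries numbered 3, against 1396 to 2071 in the other 8, and 3 of the 7 (Adgre1, Csf1r and Lyz2) were higher without overlap. Lyz2 was at 2172 to 2438 against 677 to 1014. The 11 synoviocyte markers summed to 200768 to 391557 in number 3, against 400673 to 566554 in the others, mostly from Col1a1, Col1a2 and Col3a1. Of the 11, 5 (Pdgfra, Prg4, Cdh11, Col1a2 and Col3a1) were lower without overlap and 0 higher. The list did not move as a whole. Thy1 and Pdpn were highest in number 3 in SoxC_KO, control_TNF and control cells, and Vim in SoxC_KO and control cells. The 4 osteoblast markers summed to 286 to 426 against 631 to 1169, mostly from Runx2. The part of these markers in the Hox differences was not tested.

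Further along the clusters, Hoxa3, a neck and throat patterning gene, had 62.8, 32.0 and 8.84 in SoxC_KO_TNF, 34.2, 39.1 and 8.56 in SoxC_KO, 23.4, 31.5 and 17.5 in control_TNF, and 44.0, 24.2 and 21.7 in control libraries. All 4 libraries numbered 3 were below the other 8, with a log2 difference of -1.34 (SE 0.33, limma F test adjusted p = 0.0136). Hoxa6 had 23.7, 28.6 and 4.56 in SoxC_KO_TNF, 9.10, 17.4 and 1.34 in SoxC_KO, 2.86, 13.1 and 4.25 in control_TNF, and 17.4, 8.04 and 6.33 in control libraries. Its libraries numbered 3 were the lowest in 3 of the 4 groups, with a log2 difference of -1.53 (SE 0.48, limma F test adjusted p = 0.0427). Hoxa7 had 141, 172 and 236 in SoxC_KO_TNF, 171, 193 and 258 in SoxC_KO, 199, 146 and 226 in control_TNF, and 158, 166 and 233 in control libraries. These numbered 3 were above all others, with a log2 difference of 0.51 (SE 0.13, limma F test adjusted p = 0.0207). Hoxd9 had 40.9, 55.8 and 86.1 in SoxC_KO_TNF, 69.8, 76.7 and 108 in SoxC_KO, 64.4, 40.2 and 120.0 in control_TNF, and 60.7, 54.4 and 75.5 in control libraries. Here number 3 was the highest in 4 of 4 groups, with a log2 difference of 0.75 (SE 0.20, limma F test adjusted p = 0.0205). The libraries numbered 3 lay below the other 8 for 3 Hox genes (Hoxa3, Hoxa9 and Hoxa13), against 13.7% of all genes, and above for Hoxa7, against 13.8%. Hoxa7 shares 20.4% of its exon bases with Hoxaas3.

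These calls rested on single libraries to differing degrees. Without SoxC_KO_TNF replicate 3 only Hoxa13 was called, and without control_TNF replicate 3 the count was 3 (Hoxa3, Hoxa6 and Hoxa13). Hoxa3 was also lost without SoxC_KO replicate 3 (adjusted p = 0.0573), and Hoxa7 without control replicate 3 (0.0796). Hoxd13 was also lost without SoxC_KO replicate 2 (0.0576), SoxC_KO replicate 3 (0.0510) or control replicates 1 (0.0550), 2 (0.0683) or 3 (0.0875). Hoxa6 was also lost without SoxC_KO_TNF replicates 1 or 2, any SoxC_KO library, control_TNF replicate 2, or control replicates 1 or 3 (0.0595 to 0.152). Without the 2 libraries with liver transcripts only Hoxa13 was called.

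**Figure D5:**
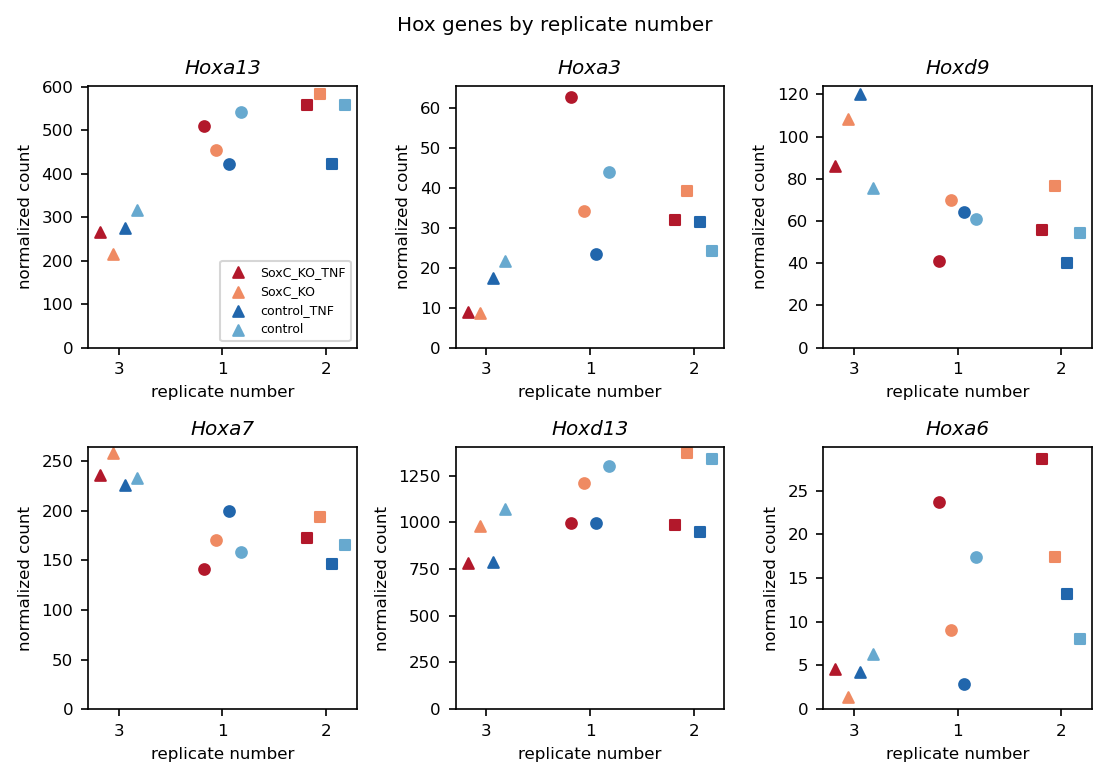
Normalized counts of the 6 Hox genes called for replicate number by the F test, with number 3 (triangles) left of numbers 1 (circles) and 2 (squares) and colours for the 4 groups. Hoxa13 reads 214 to 317 in the libraries numbered 3 and 421 to 583 in the others.

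The genes that work with or on Hox genes were counted from 6 lists: the TALE cofactors that bind DNA with HOX proteins, Polycomb repressors, Trithorax activators with the H3K27 demethylases, upstream and Hox-linked genes, noncoding RNAs of the clusters, and limb type genes. All 9 TALE, 21 Polycomb, 11 Trithorax and 3 limb type genes were tested, with 7 of 11 upstream genes and 5 of 18 noncoding RNAs. Of each list 0 were called by limma for TNF, for knockout or for the difference of the responses, against 0.292% to 1.17% of all genes for TNF and 0 for the others. With the replicate block, Pknox2, a TALE cofactor, fell with TNF in both genotypes, against 2.78% of all genes called with the block in knockout cells and 1.71% in control cells. Its normalized counts were 155, 158 and 79.0 in SoxC_KO_TNF, 349, 335 and 171 in SoxC_KO, 127, 199 and 101 in control_TNF, and 398, 374 and 129 in control libraries. Every TNF library was below its same-numbered partner. The average log2 change was -1.04, with a limma adjusted p of 0.270 without the block and 0.00157 with it, against 5.19% of all genes called for that blocked average. Pitx1 had 54.4, 98.4 and 56.5 in SoxC_KO_TNF, 131, 134 and 207 in SoxC_KO, 158, 97.1 and 101 in control_TNF, and 161, 137 and 161 in control libraries. Its average log2 change with TNF was -0.79, with a limma adjusted p of 0.142 without the block and 0.0468 with it. Pitx1 was lowest of its group in both libraries with liver transcripts, SoxC_KO_TNF replicate 1 and control_TNF replicate 2. For Pknox2 and Pitx1 the fit without those libraries was not examined.

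Replicate number changed the lists too, against 47.7% of all genes. Among TALE cofactors 1 was higher in number 3 (Meis3) and 3 lower, Pbx3 and Pknox2 among them. Among Polycomb genes 4 were higher and 9 lower, and among Trithorax genes 1 was higher and 6 lower. Of upstream genes 2 were lower, and of limb type genes Tbx4 was lower. Of the noncoding RNAs 3 were higher (Hoxa11os, Hotairm1 and Hoxd3os1). Hoxa11os had 449, 496 and 696 in SoxC_KO_TNF, 609, 569 and 1151 in SoxC_KO, 692, 502 and 879 in control_TNF, and 607, 525 and 907 in control libraries, and number 3 was the highest in each group.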

How the data were processed

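Trizol RNA was selected for poly(A) and read in pairs on a NovaSeq, per the labels' protocols. The authors deposited log2 values, normalized per the file headers, for each gene in each library. The submitters' processing notes name mm10, and the sources used here do not give the aligner, annotation or strand setting. Because the planned design assumed a linear scale, each value was turned back into 2 to that power, with 0 left at 0, and then analysed as log2(normalized count + 1), which understates changes of low genes. Whole reads were not recovered (55.9% to 65.3% of low values fell on 0.5 steps of the commonest low value, itself 1.51 to 2.68 normalized counts), so no count model was run and depth in reads is unknown. Low genes therefore carry the most counting error.

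Sample titles gave the groups and replicate numbers. limma 3.58.1 (R 4.3.3) was fitted with 1 mean per group and an intensity trend over the 18139 genes that reached 10 normalized counts in 3 or more libraries, and adjusted by the Benjamini-Hochberg method over all of them. The script was tested on simulated data. The contrasts were TNF in each genotype, knockout with and without TNF, their averages and the difference of the TNF responses. The replicate number was tested by an F test as a term beside the group means. Same-numbered libraries were read as pairs where each correlation of their deviations exceeded 0.1. This held for TNF in knockout cells (r = 0.340, 0.148 and 0.501), TNF in control cells (0.103, 0.550 and 0.715) and knockout without TNF (0.457, 0.515 and 0.707), and not for knockout with TNF (0.0537, 0.189 and 0.526). Levels per kb used exon lengths of GENCODE vM21, in which all 39 Hox genes had the deposited start and end. Promoters are from RefSeq.

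Some genes are counted but not reported here by name. Values in every library were given for members called in a test, the 2 highest per kb of each cluster, the smallest p of each contrast and the widest gaps between number 3 and the rest, and up to 3 genes per companion list. The members and lists were chosen with earlier results of these data known. Alternatives were other scalings, pseudocounts, filters and variance settings, the replicate block, and libraries left out.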

Additional observations from a re-analysis of the deposited data

How the results depend on the processing

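The counts of Hox genes called stayed at 0 for the 4 comparisons within a genotype or treatment (25 alternatives each), and for the average knockout effect and the difference of the TNF responses (24 each), replicate block and each library left out included. For the average TNF effect the count was 0, and 1 (Hoxd13) with the replicate block or without the 4 libraries numbered 3. With the replicate block it was also 1 under each of 3 scalings, pseudocounts of 0.5 and 5, no filter, a filter of 50, no intensity trend and robust empirical Bayes, and 0 to 2 with 1 library left out (2 without SoxC_KO_TNF replicate 2, Hoxd12 being added). The replicate number term called 6 Hox genes, 1 to 8 with 1 library left out and 1 without the 2 libraries with liver transcripts; the cause was not tested. The number of Hox genes expressed was 28, 27 to 28 with 1 library left out, 17 at a minimum of 50, 34 at a minimum of 5, and 23 when 10 was needed in 6 libraries. Only some log2 changes of Hoxd13, Hoxd11 and Hoxc13, and those of the 6 genes called for replicate number, were followed over the alternatives. None of these reversed. For other log2 changes, such as that of Hoxd13 with knockout, a reversal was not examined. For single genes, 304 values kept their side of the threshold, 16 gained a call and 31 lost one. The settings without the liver or number 3 libraries, and those that combine the block with another choice, were added after the data were seen. Depth limits the genes near 10 normalized counts, such as Hoxb2, Hoxb6, Hoxc4 and Hoxc12.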
